A study of Mus musculus with 6 samples.

Results

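Olig1, Olig2, Nkx2-2, Sox10, Sox4, Sox11, Sox6, Gpr17 and Smoc1 are genes of the oligodendrocyte lineage and of proneural glioma, and they make up 9 of the 16729 genes in the deposited count table. They were selected on these same data, with the difference between tumors from Esm1 KO and WT hosts in view, so their own values are given as a description without a test. The tumors grew from a single murine gliomasphere culture, named mG7080 in the labels, which came from mice with mutations that include p53 and Nf1. These cells were placed into the brains of female C57BL/6 mice, 6 to 8 weeks old by the study's methods and 8 to 12 weeks by its reporting summary, that were either wild type or knockout for Esm1, the gene for the secreted proteoglycan Endocan. The knockout was therefore a property of the host, and the injected cells carried the same mutations in both groups. Tumor tissue was taken once tumors had formed, and bulk RNA was sequenced from 3 WT hosts (WT 1, WT 2, WT 3) and 3 KO hosts (KO 1, KO 2, KO 3). Each library thus held RNA of tumor cells and of host brain and vessels together, and fewer cells of a type cannot be told apart from less RNA per cell.

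Olig1 and Olig2 are basic helix-loop-helix (bHLH) transcription factors that specify and maintain oligodendrocyte precursor cells (OPCs), the dividing glial cells marked by the receptor Pdgfra and the proteoglycan Cspg4. Sox10 and Nkx2-2 act with them and carry the lineage towards myelination, Sox6 holds OPCs back from maturing, Gpr17 marks precursors that have committed to differentiate, and Sox4 and Sox11 are high in immature neural cells. Proneural glioblastoma is the transcriptional class in which this precursor program, with OLIG2 and PDGFRA at its head, is strongly expressed.

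Library depth ran from 17632070 to 22241832 counted reads, and levels are given as CPM, counts scaled to library size with TMM factors. For Esm1, the gene removed in the KO hosts, 25 reads were counted in WT 1, 21 in WT 2, 82 in WT 3, 1 in KO 1 and 4 in KO 3. The library labelled KO 2 held 24 Esm1 reads, between WT 2 and WT 1 in raw count. Scaled to library size it stood at 1.07 CPM, just below WT 2 (1.085 CPM) and WT 1 (1.19 CPM), with WT 3 at 4.05 CPM. Whether these reads came from host or injected cells, and whether the label is right, was not tested. The members' differences and the counts over all listed genes are given with all 6 libraries and with 4. The 4 are WT 1, WT 2, KO 1 and KO 3, the libraries for which the study tabulated values. Many other named genes carry a difference over the 4 only. With edgeR's quasi-likelihood test over 6 libraries, 0 of the 16166 genes tested passed an adjusted p of 0.05. The tissue also differed between libraries. Summed proliferation markers (10 genes) stood at 1290 to 2293 CPM in the WT libraries and 1430 CPM in the library labelled KO 2, but at 155 CPM in KO 1 and 66.6 CPM in KO 3. In KO 3, Mki67, the gene for the proliferation antigen Ki-67, stood at 4.17 CPM, against 320 to 504 CPM in WT libraries. Summed neuron markers (10 genes) stood at 1688 to 5123 CPM in WT libraries, 4380 CPM in the library labelled KO 2, 11640 CPM in KO 1 and 14260 CPM in KO 3. Tumor content was not measured independently of these markers, and its part in the differences described here was not tested.

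Start regions are shown for members that lie on different chromosomes and were low in the same libraries, so that their promoters can be compared. RefSeq (GRCm38.p6) promoter entries were matched by symbol for 5 of the 9 members. Sox6 had 6 alternative starts there and is not printed, and Olig1, Sox10, Smoc1 and Gpr17 were not matched. The 250 bases before the RefSeq start are printed 5′ to 3′ on the gene's strand, with capitals marking 4 of 7 motifs searched on both strands. RefSeq and GENCODE, whose gene spans are given further on, place some starts differently. The Nkx2-2 window lies inside the GENCODE span of the gene, before an internal start, and the Olig2 and Sox4 windows reach past the GENCODE start. The first is the CCAAT box, whose reverse complement reads ATTGG. The others are palindromic forms of the E box, the site that bHLH proteins bind, and they read CAGCTG in one form, then CATATG in another, and finally CACGTG in the last. No match overlapped another. These motifs were picked with the sequences in view.

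Olig2, chr16:91225300-91225549, plus strand: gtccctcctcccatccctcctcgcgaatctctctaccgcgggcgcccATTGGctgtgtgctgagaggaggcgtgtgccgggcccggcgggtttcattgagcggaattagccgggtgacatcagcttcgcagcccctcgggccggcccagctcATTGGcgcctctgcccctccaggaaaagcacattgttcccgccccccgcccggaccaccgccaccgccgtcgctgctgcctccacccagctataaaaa

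Nkx2-2, chr2:147186403-147186652, minus strand: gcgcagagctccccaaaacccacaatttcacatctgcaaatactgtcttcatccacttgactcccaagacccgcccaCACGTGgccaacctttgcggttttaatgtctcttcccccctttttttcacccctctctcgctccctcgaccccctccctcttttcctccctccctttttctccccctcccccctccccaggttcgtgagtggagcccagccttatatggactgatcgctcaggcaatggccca

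Sox4, chr13:28953700-28953949, minus strand: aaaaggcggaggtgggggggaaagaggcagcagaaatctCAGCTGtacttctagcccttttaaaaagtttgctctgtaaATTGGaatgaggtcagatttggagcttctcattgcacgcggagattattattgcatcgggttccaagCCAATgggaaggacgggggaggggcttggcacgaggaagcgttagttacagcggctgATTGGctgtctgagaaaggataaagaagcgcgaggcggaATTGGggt

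Sox11, chr12:27342719-27342968, minus strand: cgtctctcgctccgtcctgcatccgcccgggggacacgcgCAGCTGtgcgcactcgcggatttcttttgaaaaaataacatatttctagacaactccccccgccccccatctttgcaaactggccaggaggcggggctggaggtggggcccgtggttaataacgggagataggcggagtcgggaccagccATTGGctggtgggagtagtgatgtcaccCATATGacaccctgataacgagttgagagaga

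The CCAAT box was found at 2 positions before Olig2, 4 before Sox4 and 1 before Sox11, and at no position before Nkx2-2. Over all 32851 promoter entries, 33.9% held it at least once in the same window. CAGCTG was found before Sox4 and before Sox11, with its first base at position -211 and -210 from their starts, and 13% of all entries held it. CATATG stood once before Sox11 (3.46% of all entries) and CACGTG once before Nkx2-2 (6.02% of all entries). The 4 windows thus shared no single one of these motifs. Of the motifs searched but not marked, the SOX-type letters ACAATG stood once before Olig2 (10.7% of all entries). The TATA-type letters TATAAA also stood once before Olig2 (12.4% of all entries). A further SOX-type run, ACAAAG, was found before none of the 4 genes (16.5% of all entries). Matches describe letters and are not evidence of binding.

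Olig1 and Olig2 lie next to each other on the plus strand of chromosome 16 (GRCm38, GENCODE vM21), Olig2 at 91225457 to 91228677 and Olig1 at 91269772 to 91271933, with 41094 bases between them. Olig2, the factor that defines the lineage, stood at 231 CPM in WT 1, 314 CPM in WT 2, 282 CPM in WT 3, 57.4 CPM in KO 1, 321.5 CPM in the library labelled KO 2 and 30.5 CPM in KO 3. KO 1 and KO 3 lay well below every WT library, whereas the library labelled KO 2 lay above all 3. The WT mean of 276 ± 41.9 CPM (SD, n = 3) compared with 136.5 ± 161 CPM for the KO group (SD, n = 3), whose spread exceeded its mean. Over 6 libraries the log2 difference (KO minus WT) was -1.04 with an SE of 0.85. Over the 4 libraries it was -2.64 with an SE of 0.39.

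Olig1, its bHLH partner, stood at 499 CPM in WT 1, 660.3 CPM in WT 2, 589 CPM in WT 3, 189 CPM in KO 1, 669 CPM in the library labelled KO 2 and 112 CPM in KO 3. The order of libraries was the same as for Olig2. Its log2 difference was -1.95 over 4 libraries (SE 0.38) and -0.87 over 6 (SE 0.66), smaller in size than that of Olig2 in both. The ratio of Olig2 to Olig1 CPM, in which gene length cancels between libraries, was 0.463, 0.476 and 0.480 in WT 1 to WT 3 and 0.481 in the library labelled KO 2. It was 0.303 in KO 1 and 0.272 in KO 3. Olig2 RNA was therefore lower relative to Olig1 RNA in the 2 libraries where both were low.

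Nkx2-2, a homeobox factor of ventral neural progenitors and of differentiating oligodendrocytes (chromosome 2, 147177546 to 147194243, minus strand), had the fewest reads of the members in 5 of the 6 libraries, Sox10 having fewer in WT 2. It stood at 24.3, 30.2 and 33.2 CPM in WT 1, WT 2 and WT 3, at 9.41 CPM in KO 1, 37.7 CPM in the library labelled KO 2 and 4.63 CPM in KO 3. The KO 3 value rests on 89 counts, with an exact 95% Poisson interval of 3.72 to 5.70 CPM that covers counting error alone and lies below every WT value. The log2 difference was -1.97 over 4 libraries (SE 0.40) and -0.78 over 6 (SE 0.74). Its exons share 278 bases with the antisense gene Nkx2-2os, and reads of the pair cannot be told apart without strand information. Olig1 and Gpr17 likewise share 157 and 188 exon bases with the opposite-strand genes Gm15966 and Lims2.

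The 3 SOX members that were low in KO 1 and KO 3 belong to 2 groups of this family of HMG-box factors. Sox4 and Sox11 are the SoxC genes of immature neural cells, and Sox6 is a SoxD gene. Sox11 (chromosome 12, 27334264 to 27342574, minus strand) stood at 132 CPM in WT 1, 239.8 CPM in WT 2, 170.2 CPM in WT 3, 36.1 CPM in KO 1, 151 CPM in the library labelled KO 2 and 18.2 CPM in KO 3. Here the library labelled KO 2 lay inside the WT range. The log2 difference was -2.79 over 4 libraries (SE 0.47), the lowest of the 9 members, and -1.43 over 6 (SE 0.78), again the lowest.

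Sox4 (chromosome 13, 28948919 to 28953713, minus strand) stood at 126 CPM in WT 1, 200 CPM in WT 2, 159 CPM in WT 3, 39.0 CPM in KO 1, 151 CPM in the library labelled KO 2 and 31.4 CPM in KO 3. Its libraries fell in the same order as those of Sox11 within the WT group, with WT 2 highest and WT 1 lowest. The log2 difference was -2.22 over 4 libraries (SE 0.30) and -1.15 over 6 (SE 0.63). Of its exons, 2616 bases are also covered by an annotated opposite-strand transcript, Gm26735, so the count may hold reads of both.

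Sox6 (chromosome 7, 115470872 to 116038796, minus strand), which keeps precursors immature, varied least among the WT libraries, at 165 CPM in WT 1, 183 CPM in WT 2 and 188 CPM in WT 3, a 1.14-fold range. It stood at 45.0 CPM in KO 1, 186.5 CPM in the library labelled KO 2 and 36.3 CPM in KO 3. The library labelled KO 2 was within the WT range at this gene, and KO 1 and KO 3 were close to each other. The log2 difference was -2.11 over 4 libraries (SE 0.21) and -1.02 over 6 (SE 0.64).

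Gpr17, a G protein-coupled receptor of committed oligodendrocyte precursors, stood at 399.5 CPM in WT 1, 242 CPM in WT 2, 484 CPM in WT 3, 93.6 CPM in KO 1, 737 CPM in the library labelled KO 2 and 48.8 CPM in KO 3. It was the most variable of the 8 members that were low in KO 1 and KO 3, with a 2-fold range inside the WT group and, in the library labelled KO 2, 1.96 times the WT mean. The log2 difference was accordingly the most dependent on that library, at -0.37 over 6 libraries (SE 0.99) and -2.39 when that library alone was left out. Over 4 libraries, which lack WT 3 as well, it was -2.18 (SE 0.44). Smoc1, a secreted matricellular protein that antagonizes BMP signaling (chromosome 12, 81026808 to 81186414, plus strand), stood at 90.9, 101 and 115.5 CPM in WT 1, WT 2 and WT 3. It was 15.9 CPM in KO 1, 93.8 CPM in the library labelled KO 2 and 18.3 CPM in KO 3. Among the 8 it was the one member that was lower in KO 1 than in KO 3, and its log2 difference was -2.50 over 4 libraries (SE 0.19) and -1.28 over 6 (SE 0.71).

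**Figure D1:**
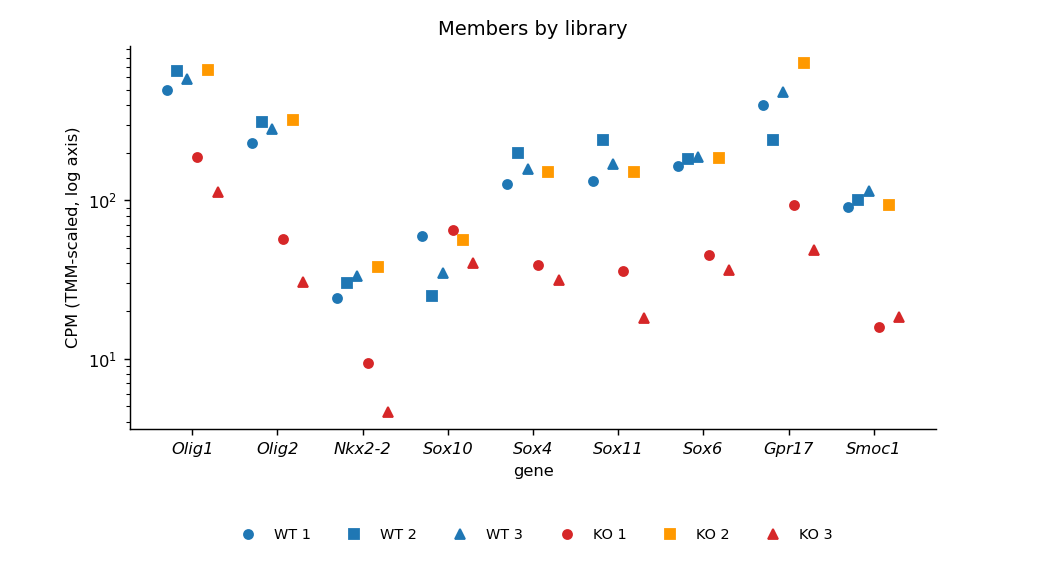
Each point is the CPM (log axis) of 1 member in 1 library, with WT hosts in blue, KO 1 and KO 3 in red and the library labelled KO 2 in orange. KO 1 and KO 3 lie under all WT points for 8 of the 9 genes, and for Sox10 they mix with them.

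Sox10 (chromosome 15, 79154908 to 79165240, minus strand), the SoxE factor that switches on myelin genes, did not follow the other 8. It stood at 59.5 CPM in WT 1, 24.9 CPM in WT 2, 35.0 CPM in WT 3, 65.0 CPM in KO 1, 56.2 CPM in the library labelled KO 2 and 40.5 CPM in KO 3. The groups overlapped, with KO 1 the highest and WT 2 the lowest library, and the 2.39-fold range inside the WT group was wider than for any other member. The log2 difference was 0.31 over 4 libraries (SE 0.47) and 0.42 over 6 (SE 0.35).

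Relative to Olig2, Sox10 RNA was highest in KO 1 and KO 3. The ratio of Sox10 to Olig2 CPM was 0.258, 0.0793 and 0.124 in WT 1 to WT 3, 0.175 in the library labelled KO 2, 1.13 in KO 1 and 1.33 in KO 3. Summed myelin genes (16 genes, without Sox10) ran 4372, 1861 and 2460 CPM in WT 1 to WT 3, and 8964 CPM in KO 1, 4020 CPM in the library labelled KO 2 and 4773 CPM in KO 3. Sox10 and this sum were both lowest in WT 2, next lowest in WT 3 and highest in KO 1. They parted in KO 3, which lay above every WT library in the sum but below WT 1 for Sox10. Within the WT group, WT 1 had the highest Sox10, myelin and neuron sums and the lowest Olig2.

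**Figure D2:**
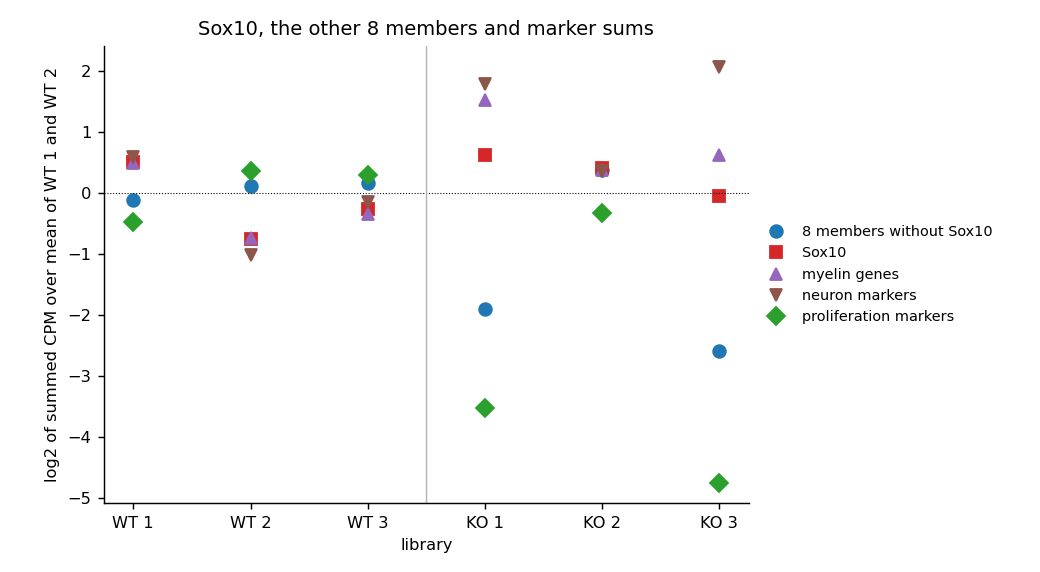
Points give, for each library, the log2 of Sox10 CPM or of a summed CPM over its mean in WT 1 and WT 2. The 8 other members and the proliferation markers are far below 0 in KO 1 and KO 3, whereas the neuron and myelin sums are above 0 and Sox10 lies between -0.76 (WT 2) and 0.62 (KO 1).

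Counted over the 9 members, KO 1 and KO 3 both lay below all 3 WT libraries for 8 genes, where 40.4% of all 16166 genes tested over 6 libraries did so. Because the members were chosen on this contrast, nothing is read from that count. With the library labelled KO 2 included, all 3 KO libraries lay below all 3 WT libraries for 0 of the 9 members, against 14.6% of genes in the table. That library was above the WT range for 4 members (Olig1, Olig2, Nkx2-2 and Gpr17), within it for 5 and below it for 0. Over all genes tested it was above the WT range for 24.15% and below it for 21.29%. The 8 members without Sox10 summed to 1669, 1971 and 2020 CPM in WT 1 to WT 3, 486 CPM in KO 1, 2347 CPM in the library labelled KO 2 and 300.4 CPM in KO 3. KO 3 had the lower value in all of the 9 but Smoc1. The median log2 difference of the 9 was -2.18 over 4 libraries and -1.02 over 6, beside a median over all genes tested of -0.03 and -0.02.

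**Figure D3:**
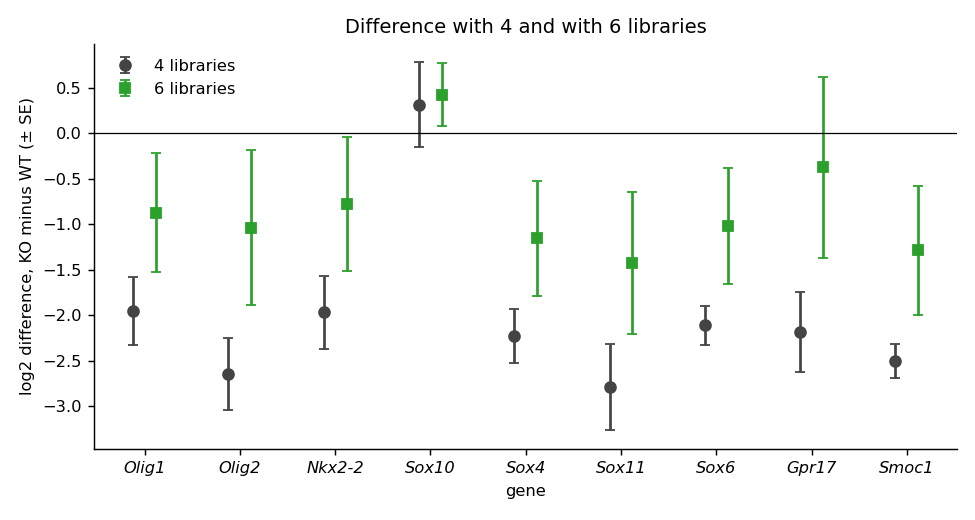
Points are log2 differences, KO minus WT, from edgeR with 1 SE as bars, for 4 libraries (grey circles) and 6 (green squares). For the 8 members other than Sox10 the 6-library value is closer to 0 and its SE is larger, as with Gpr17 (-2.18 with SE 0.44 against -0.37 with SE 0.99).

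Levels of different genes were compared per kilobase of annotated exons. Olig1 ranked first in all 6 libraries, at 269.6 ± 37.3 CPM per kilobase in WT (SD, n = 3), and Olig2 followed at 109 ± 16.6 in the same unit. Gpr17 came next at 72.2 ± 23.6, which overlapped Olig2 within 1 SD of each, and in the library labelled KO 2 Gpr17 stood above Olig2 (142 against 127 CPM per kilobase). Sox4 (33.7 ± 7.69), Smoc1 (29.3 ± 3.54) and Sox11 (21.7 ± 6.58) formed the middle of the order, and neighbours among these 3 did not differ beyond their spread. Sox10 (13.1 ± 5.83), Sox6 (12.1 ± 0.823) and Nkx2-2 (10.2 ± 1.56) were lowest and overlapped one another. The order below Olig2 depends on the gene length used. With the deposited FPKM, Nkx2-2 (23.0 ± 4.08 FPKM in WT) stood level with Sox11 (22.9 ± 7.65) and Sox6 (21.9 ± 2.12) and above Sox10 (15.5 ± 6.38). In the same unit Sox4 (58.6 ± 15.2) stood above Smoc1 (31.6 ± 4.39) without overlap within 1 SD. In WT 2 Sox4 also stood above Gpr17 (74.3 against 51.1 FPKM). In KO 1 and KO 3, Sox10 moved up the order from the sixth or the ninth place of the WT libraries to place 3 and place 2, with 21.3 and 13.3 CPM per kilobase against 22.7 and 12.1 for Olig2.

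By likeness over the 6 libraries (Pearson's r of log2 CPM with the mean standardised pattern of the 9 members), the nearest genes outside the list were Il1a (r = 0.998), Ripk3 (r = 0.998), Arhgap9 (r = 0.998), Slamf8 (r = 0.997) and Nod1 (r = 0.997). The coefficients describe 6 points of which KO 1 and KO 3 stand apart, and carry no test. Il1a, which encodes a cytokine, stood at 6.19, 6.72 and 6.71 CPM in WT 1 to WT 3, 2.00 CPM in KO 1, 8.59 CPM in the library labelled KO 2 and 1.15 CPM in KO 3.

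Other genes of the lineage and its pathways, which are not members, were taken from 8 lists holding 142 further genes of the table, 140 of them tested. With edgeR's quasi-likelihood test over 6 libraries, none of the 140 passed an adjusted p of 0.05, and neither did any of the 16166 genes tested (0%). At an unadjusted p under 0.05, 14 of the 140 were lower in KO (11.9% of all genes tested) and 21 were higher (15.2% of all genes). Over the same libraries DESeq2 called 6 lower and 7 higher (2.63% and 4.68% of all genes tested), and edgeR's exact test called 3 lower and 1 higher (0.241% and 0.408%). Over the 4 libraries, 32 of the 140 fell (13.9% of all genes tested fell) and 3 rose (2.87% of all genes rose). The count of 32 became 3 without KO 3 (1.54% of all genes then fell) and 13 without KO 1 (5.62%). The count of 3 became 0 without KO 3 (0% of all genes then rose), 7 without WT 2 (6.91%) and 52 without WT 1 (25.9%). When the library labelled KO 2 alone was left out of the 6, 46 fell and 30 rose, where 28.3% of all genes fell and 24.5% rose. Of the 32 genes, the library labelled KO 2 lay below the WT range for 13, within it for 15 and above it for 4. Over all genes tested it lay below that range for 21.29% and above it for 24.15%. The 32 were called with WT 1 and WT 2 in the fit, so their WT range is not independent of the call.

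Of the 25 OPC genes, 11 fell over 4 libraries (13.9% of all genes tested fell), with a median log2 difference of -0.998. Over 6 libraries 3 had an unadjusted p under 0.05 and lower values in KO (11.9% of all genes). Vcan, a chondroitin sulfate proteoglycan of the precursor matrix, fell most over 4 libraries at -2.79 (SE 0.47, edgeR adjusted p = 0.0343). It stood at 321, 412 and 441 CPM in WT 1 to WT 3, and at 74.3 CPM in KO 1 and 32.3 CPM in KO 3. The library labelled KO 2, at 423 CPM, lay within the WT range. The Vcan difference over 6 libraries was -1.17 (SE 0.90), not past the threshold. Cspg4, the NG2 proteoglycan, stood at 194.5, 241 and 212 CPM in WT 1 to WT 3, 46.1 CPM in KO 1, 303 CPM in the library labelled KO 2 and 28.5 CPM in KO 3. Its log2 difference over 4 libraries was -2.56 (SE 0.32, edgeR adjusted p = 0.0343), close in size to that of Olig2. As for Olig2, its highest value was in the library labelled KO 2.

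Pdgfra, the growth factor receptor of OPCs, stood at 176, 209 and 183 CPM in WT 1 to WT 3, 91.9 CPM in KO 1, 177 CPM in the library labelled KO 2 and 81.1 CPM in KO 3. It fell by 1.17 on the log2 scale over 4 libraries (SE 0.21, edgeR adjusted p = 0.0359). The Pdgfra and Cspg4 differences over 6 libraries were -0.72 (SE 0.32) and -0.80 (SE 0.87), neither past the threshold. At the other end of the OPC list stood Ncald, a neuronal calcium sensor gene as well, at 0.81 over 4 libraries (SE 0.36, edgeR adjusted p = 0.135).

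Later stages gave other values. Of 16 genes of committed precursors and newly formed oligodendrocytes, 1 fell over 4 libraries (13.9% of all genes tested fell), with a median log2 difference of 0.50. The one that fell was Tcf7l2, a Wnt effector of early differentiation, at -1.25 (SE 0.24, edgeR adjusted p = 0.0384). Myrf, the factor that drives myelin gene transcription, stood at 58.5, 22.9 and 37.1 CPM in WT 1 to WT 3, 94.0 CPM in KO 1, 52.8 CPM in the library labelled KO 2 and 54.9 CPM in KO 3, a log2 difference of 0.86 over 4 libraries (SE 0.51, edgeR adjusted p = 0.226). Nkx6-2, a homeobox gene of myelinating cells, had 0.59 (SE 0.42, edgeR adjusted p = 0.311) and Bmp4, the highest of this list, had 1.27 (SE 0.72, edgeR adjusted p = 0.214). All 16 myelin genes had positive values over 4 and over 6 libraries, with medians of 1.02 and 0.97, yet edgeR's quasi-likelihood test called 0 of 16 in either comparison.

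At an unadjusted p under 0.05, 1 of the 16 myelin genes was higher over 4 libraries (19.9% of all genes) and 3 over 6 (15.2%). Over 4 libraries DESeq2 called 3 higher (16.6% of all genes) and edgeR's exact test 1 (16%). Mbp, myelin basic protein, stood at 1523, 572 and 782 CPM in WT 1 to WT 3, 3711 CPM in KO 1, 1439 CPM in the library labelled KO 2 and 1808 CPM in KO 3. Its log2 difference was 1.39 over 4 libraries (SE 0.70, edgeR adjusted p = 0.172), and that of Apod, the lowest of the list, was 0.06 (SE 0.28, edgeR adjusted p = 0.879). These genes are also expressed by host brain, and the neuron sum was highest in the same pair of libraries, KO 1 and KO 3. The part of host brain in the myelin and Sox10 values was not tested.

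**Figure D4:**
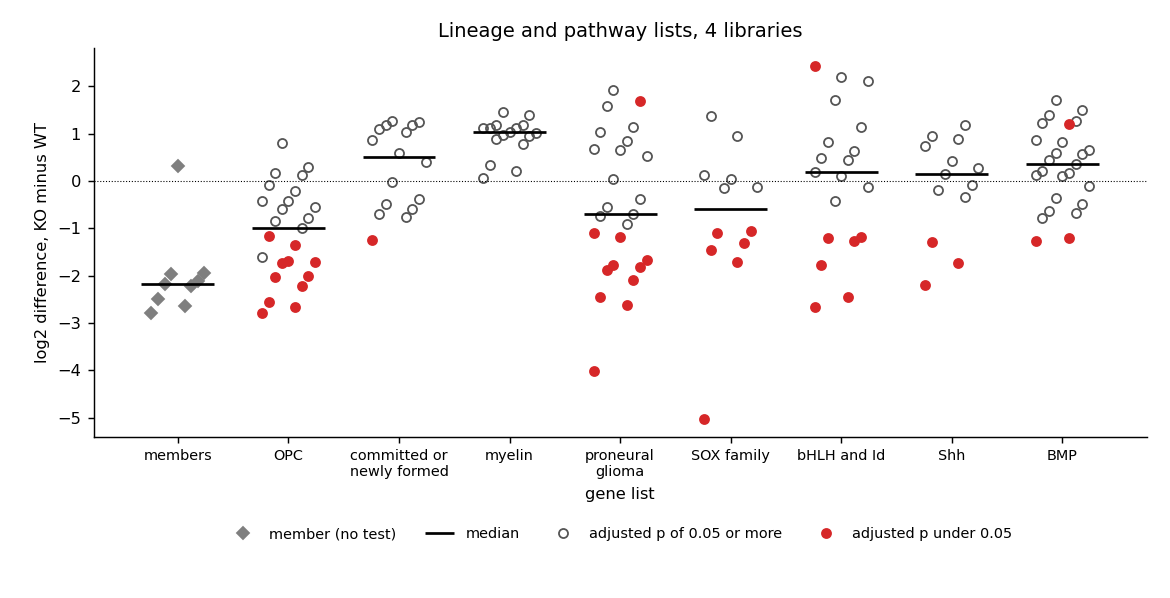
Each point is the log2 difference (KO minus WT, 4 libraries) of 1 gene, by list, with the 9 members as untested grey diamonds, genes with an edgeR adjusted p under 0.05 in red and list medians as bars. The medians run from -2.18 for the members and -0.998 for OPC genes to 0.50 for committed or newly formed and 1.02 for myelin genes.

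The proneural glioma list is the lineage's counterpart in tumors. Of its 25 further genes, 10 fell and 1 rose over 4 libraries (13.9% and 2.87% of all genes), with a median of -0.70. Over 6 libraries 2 were lower in KO and 4 were higher with an unadjusted p under 0.05 (11.9% and 15.2% of all genes). Dll3, a Notch ligand of the proneural class, stood at 31.6, 50.6 and 75.8 CPM in WT 1 to WT 3, 3.59 CPM in KO 1, 29.8 CPM in the library labelled KO 2 and 1.56 CPM in KO 3. Its log2 difference was -2.20 (SE 1.08) over 6 libraries, not past the threshold. Over 4 libraries it was -4.01 (SE 0.50, edgeR adjusted p = 0.0343), lower than that of any of the 9 members. Even the library labelled KO 2 lay below the WT range. Fgf9, the highest of the list, had 1.92 (SE 0.52, edgeR adjusted p = 0.0606). The one that rose was Dpysl4, at 1.68 (SE 0.30, edgeR adjusted p = 0.0348).

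Within the SOX family, 6 of 12 further genes fell over 4 libraries (13.9% of all genes), with a median of -0.60. Over 6 libraries 3 were lower in KO and 2 were higher with an unadjusted p under 0.05 (11.9% and 15.2% of all genes). The SoxB1 gene Sox3, a neural progenitor factor, stood at 39.8, 85.5 and 49.4 CPM in WT 1 to WT 3, 2.91 CPM in KO 1, 22.8 CPM in the library labelled KO 2 and 0.989 CPM in KO 3. Its log2 difference was -2.73 (SE 1.11) over 6 libraries, not past the threshold. Over 4 libraries it was -5.02 (SE 0.67, edgeR adjusted p = 0.0343), the lowest of the 140 genes. Sox2, its relative and a stem cell factor, fell by 1.11 (SE 0.23, edgeR adjusted p = 0.0407) on the same scale. Sox1, the third SoxB1 gene, was the highest of the list at 1.36 (SE 0.38, edgeR adjusted p = 0.0625), not past the threshold.

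The SoxE and SoxD groups were split. Sox8, the SoxE gene nearest to Sox10 in the lineage, stood at 231, 206 and 288 CPM in WT 1 to WT 3, 86.9 CPM in KO 1, 424 CPM in the library labelled KO 2 and 47.4 CPM in KO 3, a pattern like that of Gpr17. It fell by 1.71 over 4 libraries (SE 0.34, edgeR adjusted p = 0.0399) and had -0.40 over 6 (SE 0.79). The ratio of Sox10 to Sox8 CPM ran from 0.121 to 0.258 in the WT libraries, was 0.133 in the library labelled KO 2, and reached 0.748 in KO 1 and 0.853 in KO 3. Sox9, the glial and stem cell SoxE gene, fell by 1.47 over 4 libraries (SE 0.30, edgeR adjusted p = 0.0406), and with 72.0 CPM the library labelled KO 2 lay below the WT libraries (94.4 to 156 CPM). In the SoxD group, Sox5 stood at 49.3, 53.3 and 53.7 CPM in WT 1 to WT 3, and at 51.6, 43.7 and 60.7 CPM in KO 1, the library labelled KO 2 and KO 3. Its log2 difference was 0.12 over 4 libraries (SE 0.18, edgeR adjusted p = 0.611), beside -2.11 for Sox6.

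Of 19 further bHLH and Id genes tested, 6 fell and 1 rose over 4 libraries (13.9% and 2.87% of all genes). Over 6 libraries 2 were lower in KO and 5 were higher with an unadjusted p under 0.05 (11.9% and 15.2% of all genes). The one that rose was Neurod2, a bHLH factor of excitatory neurons, at 2.44 (SE 0.55, edgeR adjusted p = 0.0465). Id2, an inhibitor of bHLH factors that binds their partners and holds back oligodendrocyte differentiation, had 0.83 (SE 0.22, edgeR adjusted p = 0.0590), from 75.2 and 54.1 CPM in WT 1 and WT 2 to 110.4 and 120.9 CPM in KO 1 and KO 3. In WT 3 Id2 stood at 61.2 CPM and in the library labelled KO 2 at 76.0 CPM. Tcf12, an E protein that pairs with other bHLH factors, fell by 2.45 on the log2 scale over 4 libraries (SE 0.31, edgeR adjusted p = 0.0343). Over 6 libraries its difference was -1.38 (SE 0.62), not past the threshold. It was at 301 CPM in the library labelled KO 2, below the WT range of 318 to 472 CPM.

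Sonic hedgehog (Shh) induces Olig2 and Nkx2-2 in the ventral neural tube. Of 13 further genes of this pathway tested, 3 fell over 4 libraries (13.9% of all genes). Over 6 libraries 1 was lower in KO and 1 was higher with an unadjusted p under 0.05 (11.9% and 15.2% of all genes). Smo, the signal transducer of the pathway, stood at 59.8, 103.7 and 93.3 CPM in WT 1 to WT 3. It was 17.4 CPM in KO 1, 47.9 CPM in the library labelled KO 2 and 18.3 CPM in KO 3. The log2 difference was -1.64 (SE 0.47) over 6 libraries, not past the threshold, and -2.21 over 4 (SE 0.31, edgeR adjusted p = 0.0343). As at Sox3, the library labelled KO 2 lay between the WT libraries and the pair KO 1 and KO 3. Both target genes named here missed the threshold. Gli1 was low in every library at 1.28 to 5.53 CPM, with a log2 difference of 1.19 over 4 libraries (SE 0.36, edgeR adjusted p = 0.0712), and Ptch1 had -0.19 (SE 0.26, edgeR adjusted p = 0.568).

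Bone morphogenetic proteins (BMPs) oppose the oligodendrocyte fate, and Smoc1 is one of their antagonists. Of 25 further genes of that pathway, 2 fell and 1 rose over 4 libraries (13.9% and 2.87% of all genes). Over 6 libraries 4 were lower in KO and 4 were higher with an unadjusted p under 0.05 (11.9% and 15.2% of all genes). The one that rose was Smad7, an inhibitory member, at 1.21 (SE 0.29, edgeR adjusted p = 0.0497). Id3, a direct target, was the lowest at -1.27 (SE 0.24, edgeR adjusted p = 0.0368). The antagonist Nog was the highest at 1.71 (SE 0.65, edgeR adjusted p = 0.104). Smoc2, the closest relative of Smoc1, stood at 9.37, 2.69 and 5.38 CPM in WT 1 to WT 3, 7.82 CPM in KO 1, 8.15 CPM in the library labelled KO 2 and 26.8 CPM in KO 3. Its log2 difference was 1.51 over 4 libraries (SE 0.81, edgeR adjusted p = 0.194), beside -2.50 for Smoc1, and its groups overlapped.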

How the data were processed

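RNA of resected brain tumors was sequenced by the authors from 3 WT and 3 Esm1 KO hosts. Per the labels, TRIzol extraction, a NEBNext Ultra kit, CASAVA 1.8.2, mm10 and edgeR were used, whereas the study's methods name another kit, hg38 and HTSeq. The deposited counts are whole reads per gene without normalization, and the deposited FPKM values divide them by gene length and library total. The authors' fold changes, p-values and 9 columns of scaled values or ratios were not used. Every row holds reads in 4 or more libraries and reaches 5 reads in one of them.

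Groups followed the labels. The counts entered edgeR 4.0.16 in R 4.3.3 (filterByExpr with minimum count 10 and minimum total 15, TMM, quasi-likelihood F test, Benjamini-Hochberg over all genes tested, threshold 0.05), after tests on simulated data. Depth was 17632070 to 22241832 counts, 1 count being 0.0445 to 0.0570 CPM, and intervals cover counting error only. Each SE of a log2 difference, also for members, is the size of that difference divided by the square root of its F statistic. DESeq2 1.42.0, edgeR's exact test, RLE factors, no filter, left-out libraries and the replicate number as a block were alternatives.

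The members and the gene lists were chosen with earlier results of these data known. Named were all 9 members, the lowest and highest gene of each list over 4 libraries, Pdgfra and other lineage genes of a written rule, and the 5 genes most like the members at a mean CPM of at least 1. Mki67, Tcf12, Dpysl4 and Smad7 were named after their values were seen. Some genes of the rule are not reported here.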

Additional observations from a re-analysis of the deposited data

How the results depend on the processing

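Without the library labelled KO 2 the size of every member's difference but that of Sox10 grows, and calls over 6 libraries appear. Leaving out 1 of the 6 libraries gave 0 to 46 of the listed genes lower and 0 to 30 higher, all calls coming without the library labelled KO 2, and a median of the members from -2.19 to -0.57. Gpr17 over 6 libraries turned positive, up to 0.13, without KO 1 or KO 3. Over 6 libraries DESeq2 called 6 lower and 7 higher and edgeR's exact test 3 and 1, against 0 and 0. Over 4 libraries, where the lone library of a reduced group is taken to have the other group's spread, leaving 1 out gave 3 to 45 lower, 0 to 52 higher and a member median of -2.39 to -1.95, and Sox10 turned to -0.18 without WT 2 and -0.06 without KO 1. DESeq2 called 24 higher there (16.6% of all genes) and the exact test 19 (16%), against 3 (2.87%). RLE factors and the absence of a filter changed no such count by more than 1.5 times or member's sign. With the deposited FPKM, 30 of 54 places in the order of levels were kept; their gene lengths differ from the annotation's, for example 1354 against 2875 bases for Nkx2-2. With the replicate number as a block, 0 listed genes were called over 6 libraries and the members' median was -1.46. Deviations of same-numbered libraries correlated at 0.549, 0.594 and -0.210. Differently numbered libraries were not compared, so these values do not decide whether the numbers pair the tumors. The main fits assumed no pairing.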

Other observations

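Of 8 astrocyte markers, Gfap, the intermediate filament of reactive astrocytes and of many gliomas, was the single one that fell over 4 libraries, at -2.26 (SE 0.32, edgeR adjusted p = 0.0343), from 1092, 1143 and 1116 CPM in WT 1 to WT 3 to 247 CPM in KO 1 and 224 CPM in KO 3, with 823 CPM in the library labelled KO 2. Over 6 libraries the Gfap difference was -1.39 (SE 0.55), not past the threshold. Slc1a2, the glutamate transporter of mature astrocytes, was the highest over 4 libraries at 2.03 (SE 0.64, edgeR adjusted p = 0.0746). Of 8 microglia and macrophage markers 3 fell, where 13.9% of all genes tested fell over 4 libraries. Cd68 was lowest at -1.80 (SE 0.30, edgeR adjusted p = 0.0343) and P2ry12, a marker of resting microglia, highest at 0.94 (SE 0.39, edgeR adjusted p = 0.123). Of 7 endothelial markers edgeR's quasi-likelihood and exact tests and DESeq2 called 0 over 4 libraries. At an unadjusted p under 0.05, 2 were higher (19.9% of all genes by the quasi-likelihood test). Kdr was lowest at -0.53 (SE 0.39, edgeR adjusted p = 0.321) and Flt1 highest at 0.75 (SE 0.26, edgeR adjusted p = 0.0858). Over 6 libraries the quasi-likelihood test called 0 of the astrocyte, microglia and macrophage or endothelial markers.

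Of 10 proliferation markers 9 fell over 4 libraries (13.9% of all genes tested fell), from -1.90 for Pcna (SE 0.32, edgeR adjusted p = 0.0343) to -5.23 for Cdk1 (SE 0.86, edgeR adjusted p = 0.0343). Over 6 libraries edgeR's quasi-likelihood test called 0 of these 10. At an unadjusted p under 0.05, 0 of them were lower there (11.9% of all genes). Of 10 neuron markers 0 were called over 4 libraries by edgeR's quasi-likelihood test. With that test 8 were higher at an unadjusted p under 0.05 (19.9% of all genes), and DESeq2 called 9 (16.6%). They ran from 0.84 for Gad2 (SE 0.47, edgeR adjusted p = 0.212) to 2.43 for Slc17a7 (SE 0.73, edgeR adjusted p = 0.0701). Over 6 libraries the quasi-likelihood test called 0 neuron markers, and 5 were higher at an unadjusted p under 0.05 (15.2% of all genes).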
